A study of Mus musculus with 27 samples.

Results

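Minocycline was given to stressed mice, and the mRNA of CD11b+ cells sorted from their hippocampus (HC) was compared with that of stressed mice without the drug. HC CUMS_M received the chronic unpredictable mild stress (CUMS) protocol together with minocycline (3 libraries). HC CUMS received the CUMS protocol alone (3 libraries), and the labels name no vehicle for it. Both groups are strain C57BJ6, as the labels spell it, and both share the stress protocol, the region and the sort, so nothing in the comparison itself is unstressed. Unstressed HC NAIVE mice (2 libraries) are given beside them as a level to read against. The labels state no dose, duration, age or sex, do not say whether animals were pooled, and do not say that replicates are separate animals. The p-values therefore rest on the spread between libraries within groups, estimated over all 15 libraries of the minocycline experiment, and that spread may be technical. The 6 HC CUMS_M and HC CUMS libraries are among 27 in the whole study and 15 in the minocycline experiment, which also holds prefrontal cortex (PFC). Genes were kept where at least 10 counts were present in at least 3 of these 6 libraries. That left 13445 of 53412 listed genes, and all of them were tested. On the first principal component of the 6 libraries (31.4% of variance) CUMS_M library 3 stood apart, at 47.2, with the others from -16.7 to 6.48. On the second (24.6%) CUMS library 3 lay at -33.7, with the others from -15.3 to 25.7.

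Minocycline is a tetracycline antibiotic that enters the brain and is widely used in rodents to dampen microglial activation. Microglia, the resident macrophages of the brain, answer stimulation with a fast wave of immediate early genes, which are transcribed from signals already in the cell (MAP kinases, calcium, cyclic AMP) and need no new protein. Many of them encode transcription factors such as Fos, Jun and Egr1, and others encode the inhibitors that end the same signals, such as the MAP kinase phosphatase Dusp1 and the NF-kB inhibitor Nfkbia. Glucocorticoids, the stress hormones, act through their nuclear receptor on genes of which Per1, Fkbp5 and Tsc22d3 are well known members. Per1 is also a repressor of the circadian clock that cyclic AMP signalling induces.

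The 250 bases before the RefSeq starts (GRCm38.p6) are shown for Per1 and for Plk2, Nfkbia and Dusp1, which rank 2, 5 and 52 by p-value in this comparison. These genes were not taken in order of p-value, and the genes ranked between them are not shown. The sequences are given because cyclic AMP and NF-kB signals, which are known to induce such genes, act at short motifs in promoters. RefSeq lists 2 Per1 starts. The lines are given 5′ to 3′ on the gene's strand, the Dusp1 line leaves out bases next to the start that the annotation places in an exon, and capitals mark the letters TGACG on either strand (alone or inside the cyclic AMP response element TGACGTCA), the E-box CACGTG, and the kB motif.
Per1, chr11:69098699-69098948, plus strand: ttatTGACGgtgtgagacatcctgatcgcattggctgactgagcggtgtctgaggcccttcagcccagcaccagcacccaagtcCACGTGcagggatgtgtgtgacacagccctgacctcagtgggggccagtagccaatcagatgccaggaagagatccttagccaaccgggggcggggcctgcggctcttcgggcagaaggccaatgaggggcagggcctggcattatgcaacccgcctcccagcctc
Per1, chr11:69099902-69100151, plus strand: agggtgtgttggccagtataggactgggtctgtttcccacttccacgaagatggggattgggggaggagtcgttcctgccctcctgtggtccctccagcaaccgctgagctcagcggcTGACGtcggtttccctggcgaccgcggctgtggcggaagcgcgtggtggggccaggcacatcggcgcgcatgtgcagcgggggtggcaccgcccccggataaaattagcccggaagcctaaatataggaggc
Dusp1, chr17:26508520-26508722, minus strand: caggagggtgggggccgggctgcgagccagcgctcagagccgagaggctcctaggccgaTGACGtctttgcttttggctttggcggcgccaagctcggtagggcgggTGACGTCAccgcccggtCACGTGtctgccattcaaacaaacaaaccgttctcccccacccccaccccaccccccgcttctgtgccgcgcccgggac
Plk2, chr13:110394794-110395043, plus strand: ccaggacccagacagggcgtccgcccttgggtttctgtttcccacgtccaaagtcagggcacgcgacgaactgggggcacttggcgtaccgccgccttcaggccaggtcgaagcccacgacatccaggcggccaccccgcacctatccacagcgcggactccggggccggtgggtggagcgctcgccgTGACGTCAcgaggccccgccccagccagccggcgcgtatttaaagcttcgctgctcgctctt
Nfkbia, chr12:55492648-55492897, minus strand: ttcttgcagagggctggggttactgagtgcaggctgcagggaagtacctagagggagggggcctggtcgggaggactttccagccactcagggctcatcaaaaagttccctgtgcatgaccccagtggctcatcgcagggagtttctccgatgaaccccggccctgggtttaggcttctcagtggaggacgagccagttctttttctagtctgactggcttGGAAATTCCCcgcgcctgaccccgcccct

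The upstream Per1 window held TGACG 246 bases before the start and the E-box 166 bases before it, and the other window held TGACG 132 bases before its start. Dusp1 and Plk2 both held the full TGACGTCA, at 143 and 62 bases before the start, and Nfkbia held the kB motif at 29 bases. Among genes of 4 early response lists described below, 42 of 50 tested genes had a RefSeq window of 250 bases. With 1 window per gene, TGACG stood in 54.8% of these windows, against 26.8% of the 10190 windows of tested genes, and TGACGTCA stood in 9.52%, against 2.78%. The E-box was present in 23.8% of them and in 8.38% of all, and TGANTCA, the letters AP-1 binds, in 2.38% and 4%. The kB motif stood in 9.52% and 4.51%, and the CArG box, which serum response factor binds, in 4.76% and 1.12%. Of the 42 early response windows, TGACGTCA and the kB motif each stood in 4, the CArG box in 2 and TGANTCA in 1. Those shares therefore rest on few genes. In the 16 windows of glucocorticoid-responsive genes TGACG stood in 25%. The motifs were searched on both strands, TGACG includes TGACGTCA, and a match of letters is not a measured site.

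Per1 was the only gene that passed the edgeR test, and it fell in the stressed mice that received minocycline. Per1 (ENSMUSG00000020893, chr11:69095217-69109960 in GRCm38, plus strand) had 89.0, 96.5 and 96.8 CPM (counts scaled to an equal library total) in HC CUMS_M, against 186, 187 and 196 CPM in HC CUMS. The HC NAIVE libraries held 126 and 92.1 CPM. Each of the CUMS_M libraries lay below every CUMS library, with a wide gap and little spread within either group. The means were 94.1 ± 4.44 and 190 ± 5.60 CPM (SD, n = 3 each), which puts HC CUMS_M at 49.6% of HC CUMS. The log2 fold change was -1.01 ± 0.13 (SE, edgeR quasi-likelihood test, Benjamini-Hochberg adjusted p = 0.00292). One such gene is 0.00744% of the genes tested. Without CUMS_M library 1 the log2 fold change of Per1 was -0.96 and its edgeR adjusted p = 0.08, and without any other single library it was 0.0219 to 0.0396. In bulk samples such as these, fewer cells of a type and less RNA per cell cannot be told apart.

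**Figure D1:**
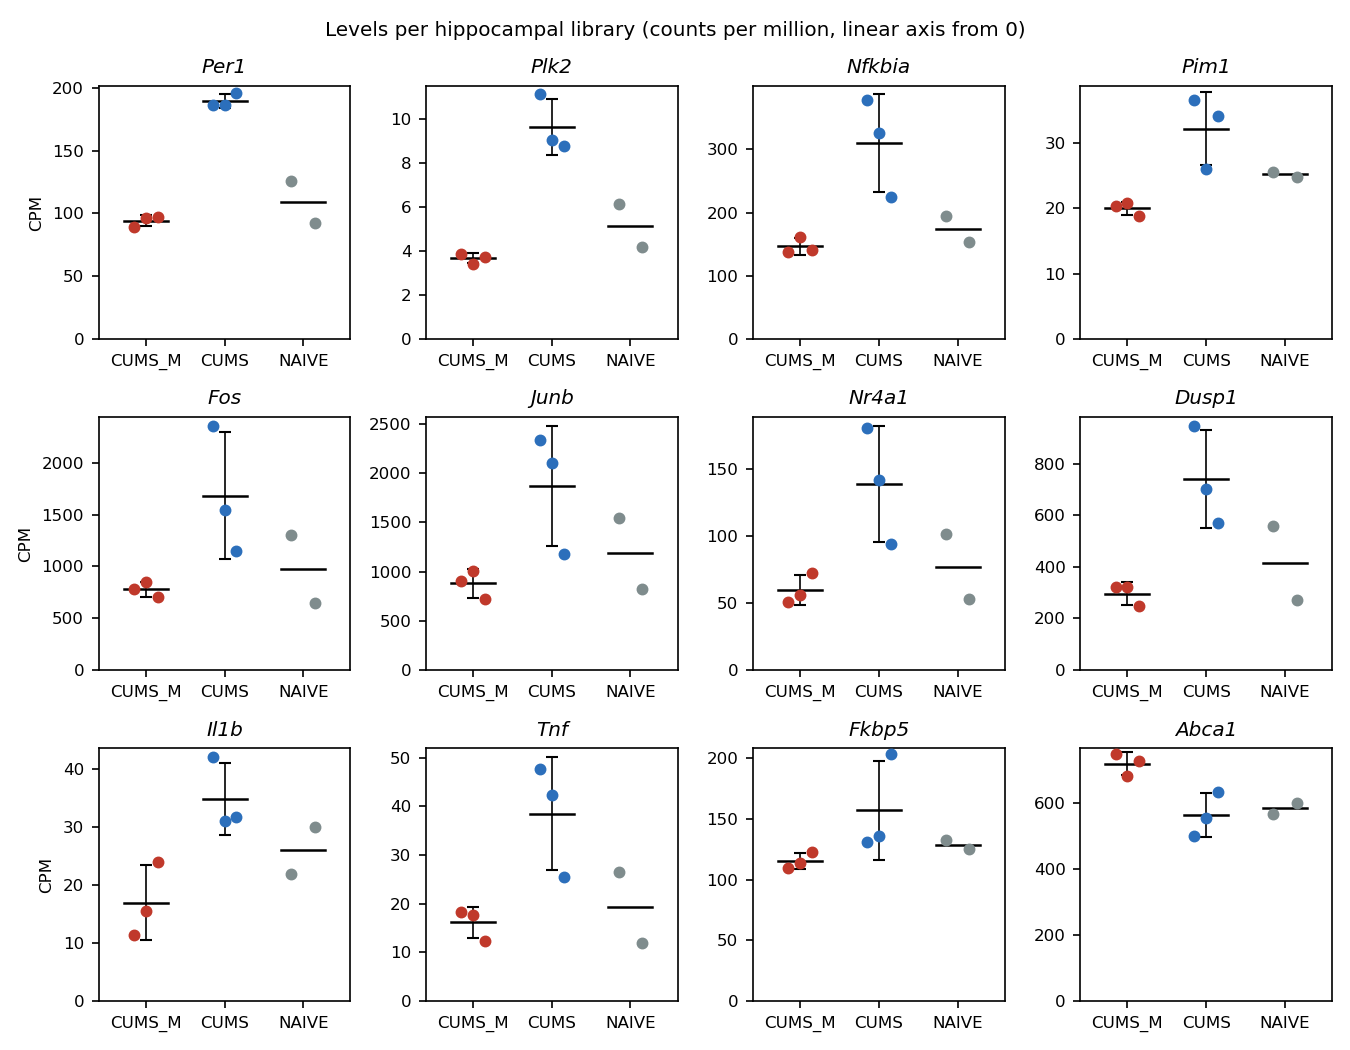
CPM of 12 genes in each hippocampal library, CUMS_M left, CUMS in the middle and NAIVE right, on linear axes from 0. Points are libraries, horizontal lines are means and bars are SD (n = 3, none for the 2 NAIVE libraries). Per1 sits between 89.0 and 96.8 CPM in CUMS_M and between 186 and 196 CPM in CUMS.

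No gene passed in the upward direction (0 by edgeR). At an unadjusted p under 0.05 edgeR gave 305 genes higher and 233 lower, which is 2.27% and 1.73% of the genes tested. DESeq2 called 9 genes higher and 24 lower, Per1 among them, 0.135% and 0.36% of the genes for which it gave an adjusted p. The fitted log2 fold changes of all genes had a median of 0.002, with the 10th percentile at -0.32 and the 90th at 0.28. At a fold of 2 or more, 98 genes were higher and 177 lower.

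**Figure D2:**
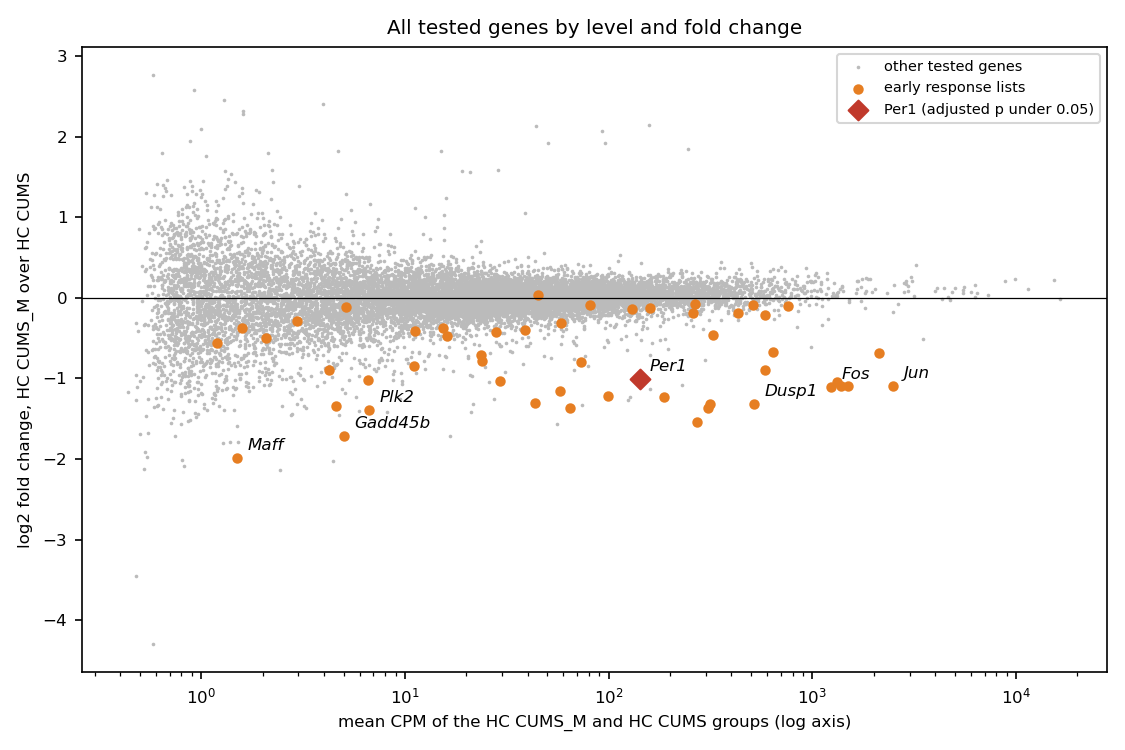
Every tested gene by its mean level in the 2 groups (CPM, log axis) and its log2 fold change, HC CUMS_M over HC CUMS. Grey points are genes outside the lists, orange points the 50 tested genes of the early response lists and the red diamond Per1. The orange points lie at or below 0 across the whole range of levels, apart from 1 at 0.03.

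The 9 genes that follow Per1 by p-value on the lower side did not pass by edgeR. DESeq2 called all of them except Plk2, with adjusted p from 3.57e-06 for Nfkbia to 0.0394 for Cebpb, so their calls depend on the method. Plk2, a polo-like kinase of the immediate early response, had 3.88, 3.43 and 3.73 CPM in HC CUMS_M, against 11.1, 9.08 and 8.80 CPM in HC CUMS. Nfkbia, which holds NF-kB in the cytoplasm, had 138, 162 and 140 CPM, against 378, 325 and 225 CPM in HC CUMS. In both genes the groups did not overlap, and CUMS library 3 was the CUMS library closest to CUMS_M. The log2 fold change was -1.39 ± 0.26 for Plk2 and -1.08 ± 0.20 for Nfkbia (edgeR adjusted p = 0.242 and 0.353). Pim1, a kinase downstream of cytokine receptors, had 20.4, 20.8 and 18.8 CPM in HC CUMS_M and 36.6, 26.0 and 34.2 CPM in HC CUMS. Arrdc3, an arrestin-domain adaptor, averaged 36.6 ± 4.34 CPM and 60.2 ± 1.13 CPM. Rhob, an endosomal GTPase that is itself an early gene, averaged 2889 ± 289 CPM in HC CUMS_M and 4106 ± 490 CPM in HC CUMS. These 3 had log2 fold changes of -0.69, -0.72 and -0.51 (edgeR adjusted p = 0.242, 0.353 and 0.353). Cd83, a marker of activated antigen-presenting cells, Il1b, Cebpb and Sertad1 completed the first 10 (edgeR adjusted p = 0.505 to 0.598), with log2 fold changes of -0.52, -1.04, -0.56 and -0.98.

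On the higher side the first genes by p-value differed by less, and several encode receptors. Il6st, the gp130 signal transducer of the IL-6 family, had 912, 714 and 755 CPM in HC CUMS_M, against 572, 613 and 639 CPM in HC CUMS. Abca1, the cholesterol efflux pump, had 747, 680 and 727 CPM, against 499, 553 and 631 CPM in HC CUMS. Every CUMS_M library exceeded every CUMS library in both genes, and the log2 fold changes were 0.38 ± 0.10 and 0.35 ± 0.09 (edgeR adjusted p = 0.598 for each). Tlr9, the endosomal receptor for unmethylated DNA, averaged 418 ± 38.9 and 322 ± 41.6 CPM, and Cd180, a Toll-like receptor homologue, 412 ± 66.0 and 304 ± 19.8 CPM. Lrp1, a large endocytic receptor, averaged 3681 ± 530 and 2782 ± 83.7 CPM. Wdfy4, Vps8, Arhgap31 and Ly9 had log2 fold changes of 0.31, 0.36, 0.31 and 0.48. Pcdhgb2, at 0.51, shares 43.4% of its exon bases with other genes of the protocadherin cluster, so its count is uncertain. All 10 had an edgeR adjusted p of 0.598. DESeq2 called all of them except Lrp1, Ly9 and Cd180, with adjusted p from 0.0249 to 0.0472.

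The genes at the ends of this ranking differed in length. The 50 lower genes of smallest p had a median exon length of 3240 bases, the 50 higher ones 9290 bases, and all tested genes 4380 bases. Over deciles of the tested genes by exon length, the median log2 fold change ran between -0.03 in decile 2 and 0.05 in the longest. In the longest decile 62.5% of genes lay above 0 and 10.5% had every CUMS_M library above every CUMS library. In that decile the libraries deviated from the mean of all 6 by a median of 0.039, -0.025 and 0.103 log2 units in HC CUMS_M, and by 0.009, -0.022 and -0.061 in HC CUMS. The part of length in the higher genes was not tested. The early response genes had a median exon length of 3380 bases, and their median log2 fold change was -0.74 after the median of each gene's own decile was subtracted.

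Immediate early genes lay on the lower side almost without exception, although none passed the edgeR test. Of 52 genes in 4 lists (AP-1 subunits, Egr, Nr4a and Klf factors, other early response genes, and dual-specificity phosphatases), 50 passed the count filter. In these, 49 had a log2 fold change below 0, against 49.6% of all tested genes, and their median was -0.75. In 30 of the 50 every CUMS_M library lay below every CUMS library, an order seen in 4.57% of all tested genes, and 33 had an unadjusted p under 0.05 on the lower side, against 1.73% of all tested genes. After adjustment over all genes edgeR called 0 of the 50. DESeq2 called 9 of them, against 0.36% of the 6668 genes for which it gave an adjusted p. CUMS library 1 was the highest CUMS library in 38 of the 50 genes, and CUMS library 3 the lowest in 36. The median over the 50 genes was -0.54 without CUMS library 1 and -0.92 without CUMS library 3, with 49 and 47 genes below 0. Without CUMS_M library 3, which stood apart, it was -0.78 with 48 genes below 0, and the adjusted p of Per1 was 0.0371 by edgeR. The 33 genes lower at an unadjusted p under 0.05 became 22 without CUMS library 1, and 27 to 33 without any other single library.

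**Figure D3:**
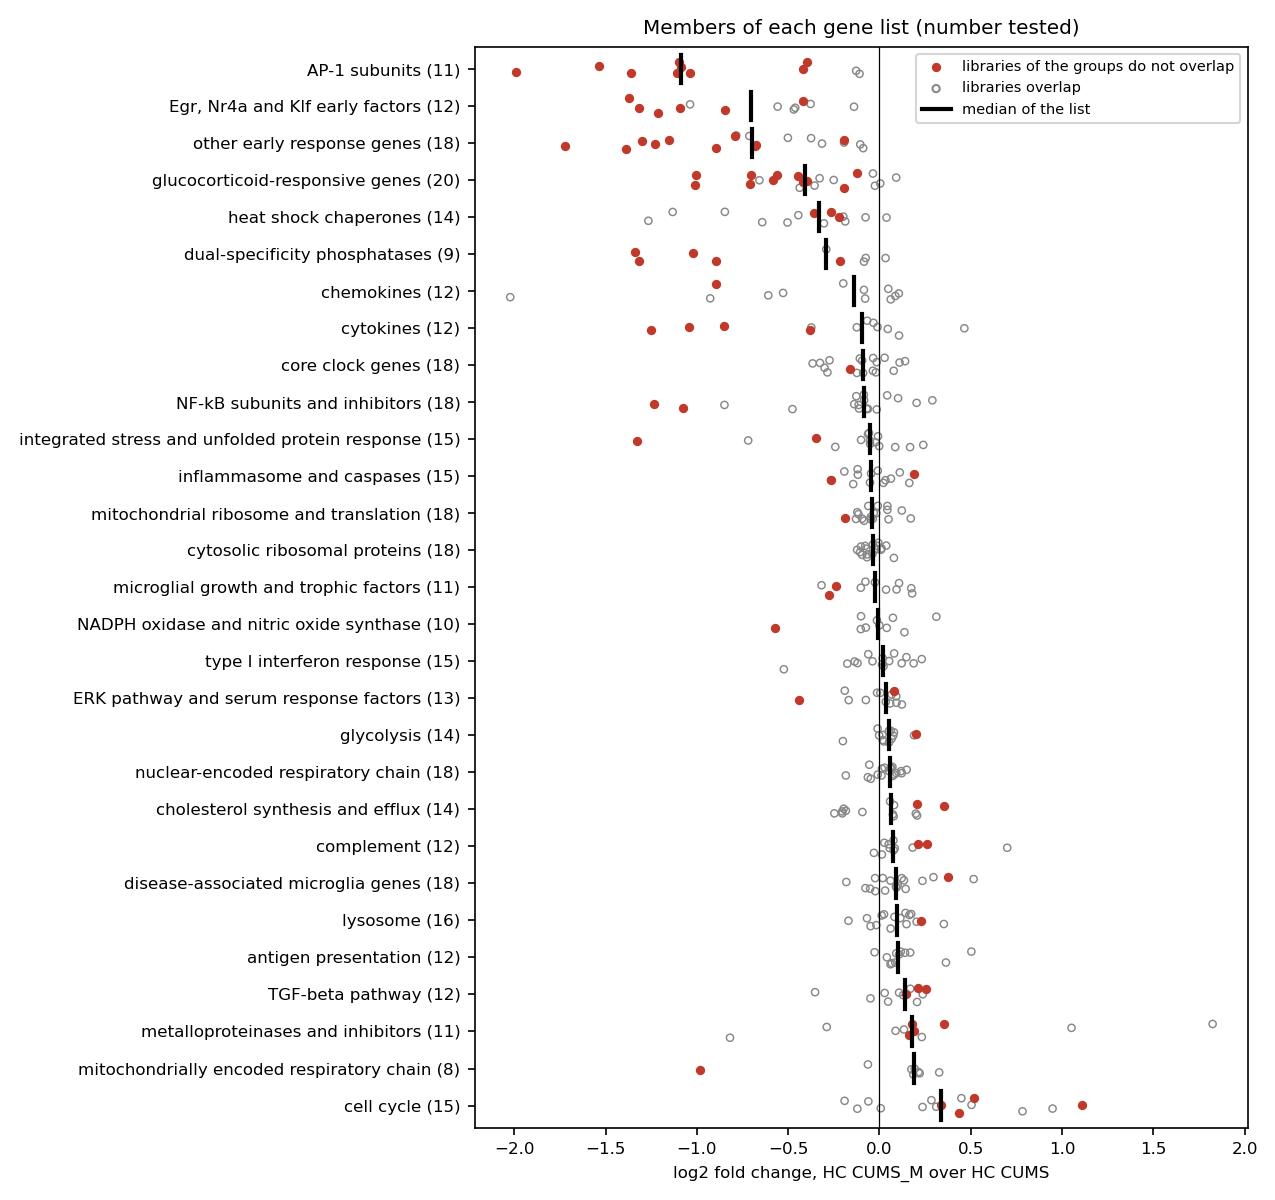
Log2 fold changes of HC CUMS_M over HC CUMS for the tested members of 29 gene lists, sorted by list median. Filled points are genes whose libraries do not overlap between the groups, open points genes whose libraries overlap, and black bars the medians, from -1.09 for AP-1 subunits to 0.34 for cell cycle genes. Points are spread vertically only to separate them.

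AP-1 is a dimer of Fos, Jun and Atf proteins, and its subunits stood lowest of the 29 lists. All 11 tested members lay below 0 with a median of -1.09, and 9 had groups that did not overlap. Fos had 784, 849 and 706 CPM in HC CUMS_M, against 2356, 1549 and 1147 CPM in HC CUMS. Junb had 902, 1011 and 725 CPM, against 2336, 2099 and 1176 CPM in HC CUMS. Jund had 932, 924 and 730 CPM, against 2154, 1966 and 1193 CPM in HC CUMS. In all 3 the CUMS_M libraries lay close together, while the CUMS libraries spread widely, with library 1 highest and library 3 nearest to CUMS_M. Their log2 fold changes were -1.11 ± 0.34, -1.09 ± 0.29 and -1.04 ± 0.27 (edgeR adjusted p = 0.976, 0.689 and 0.688). Jund shares 52.6% of its exon bases with a gene on the other strand, and the strand setting of the counting is not given in the sources used here. Atf3, a stress-induced member, averaged 140 ± 20.8 CPM in HC CUMS_M and 405 ± 207 CPM in HC CUMS. Jun and Fosb, named here after their values were seen, had log2 fold changes of -1.10 and -1.36. Maff, a small Maf partner, was barely expressed at 0.595 ± 0.325 and 2.40 ± 0.882 CPM, with a log2 fold change of -1.99 ± 0.62.

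The zinc-finger and nuclear receptor factors lay on the same side. All 12 tested Egr, Nr4a and Klf genes lay below 0 (median -0.70), and 6 had groups that did not overlap. Nr4a1, an orphan nuclear receptor, had 51.0, 55.8 and 72.7 CPM in HC CUMS_M, against 181, 142 and 94.1 CPM in HC CUMS. Klf4, a factor that shapes macrophage activation, had 34.0, 33.5 and 40.7 CPM, against 127, 96.2 and 57.1 CPM in HC CUMS. The CUMS libraries again spread widely, with library 1 highest and library 3 lowest, and did not reach the CUMS_M range. Nr4a1 had a log2 fold change of -1.22 ± 0.33, Klf4 -1.37 ± 0.42, Klf2 -1.31 ± 0.39 and Egr1 -1.09 ± 0.34 (edgeR adjusted p = 0.745 to 1).

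Other early response genes, many of which encode brakes on growth or on mRNA, had 18 of 18 members below 0 (median -0.70) and 10 without overlap. Gadd45b, a stress sensor, had 2.27, 2.21 and 2.49 CPM in HC CUMS_M, against 10.3, 9.42 and 3.31 CPM in HC CUMS. Csrnp1, a nuclear protein, averaged 35.7 ± 8.32 and 79.4 ± 16.2 CPM, and Ier2 averaged 112 ± 27.4 and 262 ± 71.5 CPM. Their log2 fold changes were -1.72 ± 0.44, -1.15 ± 0.28 and -1.23 ± 0.30 (edgeR adjusted p = 0.598, 0.598 and 0.658). Btg2, an antiproliferative protein, and Zfp36, which destabilises cytokine mRNAs, were named after their values were seen, and had log2 fold changes of -0.90 and -0.68.

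Dual-specificity phosphatases remove phosphate from MAP kinases and are induced by them. In 8 of 9 tested members the log2 fold change was below 0 (median -0.29), and 5 lay lower without overlap, against 4.57% of all tested genes. The median was -0.55 without CUMS_M library 1 and -0.17 without CUMS_M library 3. Dusp1 had 322, 321 and 247 CPM in HC CUMS_M, against 946, 700 and 571 CPM in HC CUMS. Its log2 fold change was -1.32 ± 0.33 (edgeR adjusted p = 0.688), and its lowest CUMS library still exceeded the highest CUMS_M library. The less abundant Dusp2 averaged 2.59 ± 0.668 and 6.57 ± 0.651 CPM, Dusp5 2.97 ± 0.500 and 5.53 ± 0.405 CPM, and Dusp8 4.34 ± 0.856 and 8.82 ± 1.43 CPM. In Dusp2 and Dusp5 the 3 CUMS libraries stood close together, unlike in most of the early genes. Dusp6, the ERK-specific phosphatase and named after its values were seen, had a log2 fold change of -0.22. The kinases and serum response factors upstream had a median of 0.03 with 5 of 13 members below 0. Among these Spry1, an inhibitor of receptor tyrosine kinase signalling, had a log2 fold change of -0.44 ± 0.17 and Srf itself -0.17 ± 0.12 (edgeR adjusted p = 1 for each).

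Genes that respond to glucocorticoids lay mostly below 0, with another order among the CUMS libraries. Of 20 tested members 18 had a log2 fold change below 0 (median -0.41), against 49.6% of all tested genes. In 11 every CUMS_M library lay below every CUMS library, against 4.57% of all tested genes, and 1, Per1, passed by edgeR. CUMS library 3 was the highest CUMS library in 12 of the 20. Fkbp5, a chaperone that restrains the glucocorticoid receptor, had 110, 114 and 123 CPM in HC CUMS_M, against 132, 136 and 204 CPM in HC CUMS. Tsc22d3, which encodes the anti-inflammatory protein GILZ, had 77.6, 143 and 142 CPM, against 216, 177 and 199 CPM in HC CUMS. Neither gene's groups overlapped, although Fkbp5 had 1 high CUMS library and Tsc22d3 1 low CUMS_M library. The log2 fold changes were -0.44 ± 0.13 and -0.71 ± 0.21 (edgeR adjusted p = 0.693 and 0.794). Without CUMS library 3 that of Fkbp5 was -0.21, and without CUMS_M library 1 that of Tsc22d3 was -0.46. Cebpb, a factor of the inflammatory and hormonal response, averaged 132 ± 10.3 and 196 ± 17.9 CPM. The receptor gene Nr3c1 averaged 236 ± 15.2 and 222 ± 14.6 CPM, a log2 fold change of 0.09 ± 0.09. The median of the list was -0.23 without CUMS library 3 and -0.54 without CUMS library 2.

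None of the 18 other tested clock genes passed. Of these 14 were below 0, with a median of -0.09, and 0 had an unadjusted p under 0.05. Per2, the paralogue of Per1 in the same repressor complex, had 9.42, 8.24 and 12.5 CPM in HC CUMS_M, against 11.8, 12.6 and 14.5 CPM in HC CUMS. Its groups overlapped, and its log2 fold change was -0.37 ± 0.25 (edgeR adjusted p = 1). Csnk1e, a kinase that marks Per proteins for degradation, was the 1 clock gene without overlap, at 365 ± 18.5 and 409 ± 30.4 CPM. It lay lower, as did 4.57% of all tested genes without overlap.

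The 18 NF-kB subunits and inhibitors had a median of -0.08, and 2 lay lower without overlap, against 4.57% of all tested genes. Beside Nfkbia the gene without overlap was Nfkbiz, the nuclear inhibitor that also activates some targets. Nfkbiz had 73.0, 89.5 and 65.3 CPM in HC CUMS_M and 246, 185 and 105 CPM in HC CUMS. Tnfaip3, an enzyme that ends NF-kB signalling, and Nfkbid had log2 fold changes of -0.48 and -0.85, with overlapping libraries, and that of Tnfaip3 was -0.28 without CUMS library 1. Of 12 tested cytokines 9 were below 0 (median -0.10). Il1b, Tnf, Osm and Tnfsf9 lay lower without overlap, against 4.57% of all tested genes.

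Il1b, the secreted pyrogen that inflammasomes activate, had 11.4, 15.5 and 24.0 CPM in HC CUMS_M, against 42.0, 31.0 and 31.6 CPM in HC CUMS. Tnf had 18.4, 17.7 and 12.4 CPM, against 47.7, 42.4 and 25.5 CPM in HC CUMS. In both genes each CUMS_M library lay below every CUMS library. Their log2 fold changes were -1.04 ± 0.24 and -1.25 ± 0.32 (edgeR adjusted p = 0.598 and 0.637). Without CUMS_M library 3, which had the highest Il1b level of its group, the edgeR adjusted p of Il1b was 0.0371. Likewise that of Nfkbia was 0.0219 without CUMS library 3, and that of Pim1 0.0433 without CUMS library 2. Each time the left-out library was the one of its group nearest to the other group. Without any other single library the lowest edgeR adjusted p was 0.175 for Il1b, 0.39 for Nfkbia and 0.127 for Pim1. Osm, a cytokine of the IL-6 family, had a log2 fold change of -0.38, which was -0.20 without CUMS library 1, and Tnfsf9, the ligand of 4-1BB, had -0.85. Among 12 tested chemokines 8 were below 0 (median -0.14), and Ccl4 was the one lower without overlap, against 4.57% of all tested genes. Ccl4 had 53.9, 44.99 and 43.0 CPM in HC CUMS_M and 111, 95.3 and 57.5 CPM in HC CUMS. Cxcl2, a neutrophil attractant, averaged 1.75 ± 0.510 and 7.16 ± 5.31 CPM, and its libraries overlapped. Ccl2 and Ccl7, which attract monocytes, had log2 fold changes of -0.61 and -0.93, and that of Ccl2 was -0.38 without CUMS library 1.

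Effector genes of microglial activation had medians near 0. Inflammasome and caspase genes had a median of -0.05, NADPH oxidase and nitric oxide synthase genes -0.01, type I interferon genes 0.02 and antigen presentation genes 0.10. Hmox1, which degrades heme, had 42.7, 54.4 and 43.6 CPM in HC CUMS_M, against 81.0, 60.2 and 68.1 CPM in HC CUMS, without overlap (edgeR adjusted p = 1). It was the 1 of 10 tested NADPH oxidase and nitric oxide synthase list members lower without overlap, against 4.57% of all tested genes. Txnip, a thioredoxin inhibitor, averaged 1084 ± 124 and 1303 ± 89.6 CPM. Metalloproteinases and their inhibitors had a median of 0.18, and 4 of 11 had every CUMS_M library above every CUMS library, an order seen in 5.47% of all tested genes. Mmp2, a gelatinase, had 68.2, 60.8 and 60.7 CPM in HC CUMS_M, against 48.4, 43.6 and 56.8 CPM in HC CUMS, a log2 fold change of 0.35 ± 0.12 (edgeR adjusted p = 0.949). The sheddases Adam17 and Adam10 had log2 fold changes of 0.19 and 0.18.

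Heat shock chaperones had 13 of 14 members below 0 (median -0.33) and 3 lower without overlap, against 4.57% of all tested genes. Hspa8, the constitutive HSP70, had 663, 769 and 773 CPM in HC CUMS_M, against 1089, 844 and 890 CPM in HC CUMS. The inducible pair Hspa1a and Hspa1b, named after their values were seen, averaged 73.5 ± 57.2 and 177 ± 121 CPM, and 100 ± 80.3 and 220 ± 149 CPM. Their near-identical sequences make the split of reads between them uncertain, and CUMS library 1 held most of their CUMS counts. The list median was -0.17 without CUMS library 1. In the integrated stress response the list median was -0.05, while Atf4, its central factor, averaged 129 ± 8.14 and 164 ± 24.4 CPM and its feedback phosphatase subunit Ppp1r15a 42.1 ± 3.83 and 106 ± 50.1 CPM. Nuclear-encoded respiratory chain genes had a median of 0.06, mitochondrial ribosome genes -0.04, cytosolic ribosomal proteins -0.04, glycolysis 0.05 and lysosome 0.10. The mitochondrially encoded genes had a median of 0.19, with 8 of 13 passing the filter, and followed the libraries more than the groups. They took 0.646%, 0.864% and 0.715% of counts in HC CUMS_M, against 0.551%, 0.633% and 0.804% in HC CUMS.

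Microglial identity genes were high in every library of the CD11b+ sort, which also admits other myeloid cells. The 20 microglial markers summed to 93200, 87900 and 81800 CPM in HC CUMS_M, against 75500, 79000 and 88300 CPM in HC CUMS. Itgam, the gene of CD11b itself, averaged 533 ± 15.7 and 523 ± 45.1 CPM, and 68.7% of its exon bases are shared with another annotated gene on its strand. Cx3cr1, the fractalkine receptor, had 10010, 9169 and 9135 CPM in HC CUMS_M, against 7530, 8078 and 8789 CPM in HC CUMS. These groups did not overlap, and the log2 fold change was 0.22 ± 0.08 (edgeR adjusted p = 1). Of the 20 markers, Cx3cr1 was the 1 higher without overlap, and 1 lay lower, against 5.47% and 4.57% of all tested genes. Csf1r, the survival receptor of microglia, gave 0.22, the purinergic receptor P2ry12 0.15 and Tmem119 0.07. Itgb2, the integrin partner of CD11b, and C3ar1, a complement receptor, had log2 fold changes of 0.21 and 0.26 with every CUMS_M library on the higher side. They were the 2 of 12 tested complement genes in that order, against 5.47% of all tested genes. Cell cycle genes had the highest median of the 29 lists, 0.34 with 12 of 15 above 0. Mki67, a marker of cycling cells, had 10.4, 14.6 and 20.9 CPM, against 8.12, 6.998 and 6.13 CPM in HC CUMS, and Mcm6 and Mcm5, subunits of the replicative helicase, had log2 fold changes of 0.43 and 0.34. Bmpr2, a receptor of the TGF-beta family, gave 0.25, and the TGF-beta list a median of 0.14.

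Markers of other cells differed between the libraries and in part between the groups. Neutrophil genes summed to 301, 936 and 2190 CPM in HC CUMS_M, against 422, 152 and 348 CPM in HC CUMS, and to 667 and 1430 CPM in HC NAIVE. All 12 were above 0 (median 1.83), with Ngp, a granule protein, at 69.4, 202 and 496 CPM in HC CUMS_M and 79.0, 26.2 and 69.0 CPM in HC CUMS. One of the 12, Ly6g, lay higher without overlap, against 5.47% of all tested genes. By edgeR 0 of 12 were called, with 4 higher at an unadjusted p under 0.05, against 2.27% of all tested genes. CUMS_M library 3 was the highest of the 6, and without it the neutrophil median was 0.98. Erythroid genes summed to 68.8, 27.5 and 56.7 CPM in HC CUMS_M, against 80.5, 121 and 216 CPM in HC CUMS. Endothelial and mural genes summed to 250, 145 and 165 CPM, against 229, 245 and 314 CPM in HC CUMS. In that list 5 of 12 lay lower without overlap, against 4.57% of all tested genes. Among them the pericyte gene Rgs5 had 12.8, 6.56 and 3.95 CPM in HC CUMS_M, against 23.1, 22.5 and 31.4 CPM in HC CUMS. Choroid plexus genes summed to 1150, 1000 and 1620 CPM in HC CUMS_M and to 565, 617 and 1970 CPM in HC CUMS. Neuron genes summed to 21.4 to 29.5 CPM and 25.8 to 32.0 CPM. The T cell gene Cd3g was at 0 in every library of both groups, and Cd3e in every CUMS library. The part of these cells in the differences above was not tested.

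**Figure D4:**
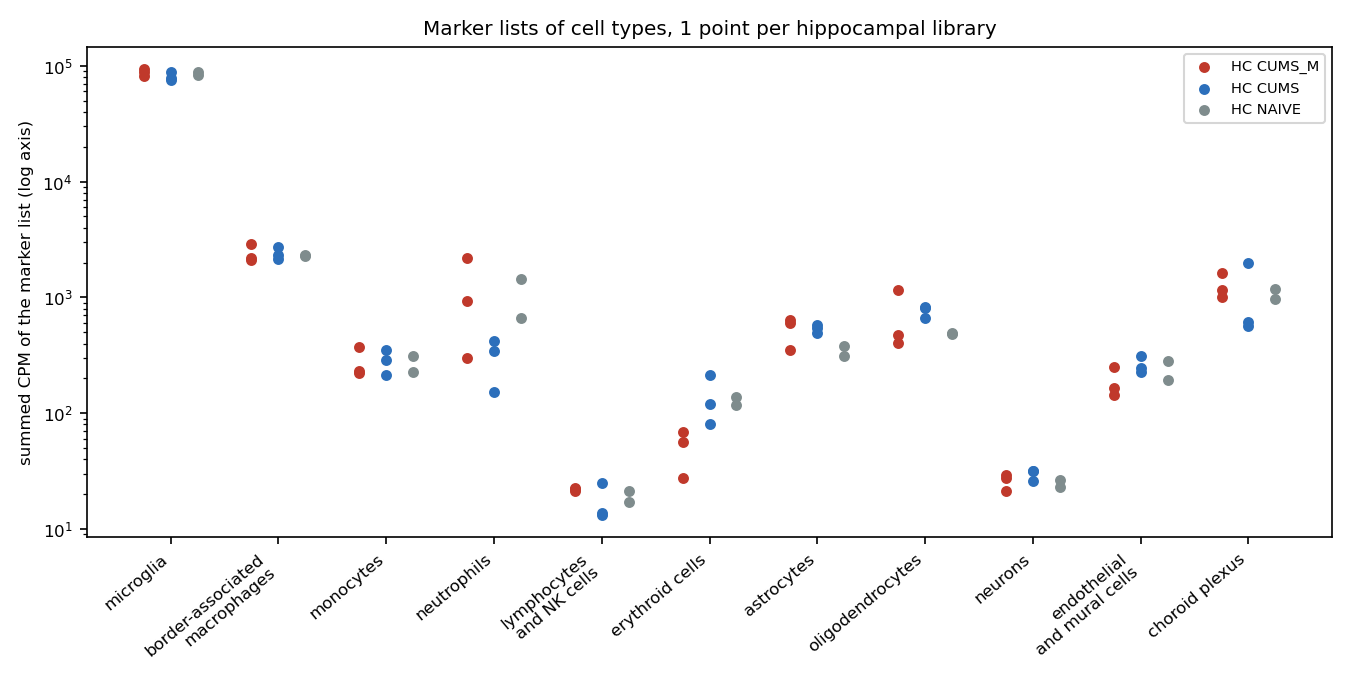
Summed CPM (log axis) of 11 marker lists, 1 point per hippocampal library, CUMS_M left, CUMS in the middle and NAIVE right of each list. Microglial markers lie between 75500 and 93200 CPM in the CUMS_M and CUMS libraries, while neutrophil markers range from 152 to 2190 CPM.

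The HC NAIVE libraries place these levels. The comparisons of HC CUMS and of HC CUMS_M with HC NAIVE share those 2 libraries with each other, and HC CUMS and HC CUMS_M libraries with the comparison above. For the 50 early genes, the median log2 fold change against HC NAIVE was -0.27 in HC CUMS_M and 0.53 in HC CUMS. For Per1 these values were -0.21 in HC CUMS_M and 0.80 in HC CUMS (edgeR adjusted p = 1 and 0.357). The 2 NAIVE libraries differed among themselves, since library 2 was below library 1 in 42 of the 50 genes, and CUMS library 3 was below NAIVE library 1 in 26 of them.

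In the PFC of the same experiment Per1 and most early genes had log2 fold changes above 0. Per1 had 182, 266 and 210 CPM in PFC CUMS_M, against 170 and 167 CPM in PFC CUMS, a log2 fold change of 0.38 (edgeR adjusted p = 0.616). The difference between the hippocampal and the prefrontal fold changes was -1.39 ± 0.19 on the log2 scale (edgeR adjusted p = 0.0108). Per1 was the only gene in which this difference passed, 0.00744% of the genes tested, with 467 (3.47%) at an unadjusted p under 0.05 and 3 called by DESeq2 (0.0324% of those with an adjusted p). Without PFC CUMS library 1 or 2 its edgeR adjusted p was 0.26 and 0.362. It lay between 0.0576 and 0.0782 without any one of HC CUMS_M library 1 or 3 or HC CUMS library 1 or 3. The 50 early genes had a median of 0.15 in PFC, with 38 above 0, and a median of -0.86 for their difference between regions. For that difference edgeR called 0 of the 50, with 29 at an unadjusted p under 0.05, and DESeq2 called 0. These 29 became 11 without PFC CUMS library 2 and 19 without HC CUMS library 1. Markers of other cells moved with the PFC groups too. Endothelial and mural genes had a PFC median of -1.81 with 12 of 12 below 0, and summed to 108, 91.0 and 123 CPM in PFC CUMS_M, against 197 and 249 CPM in PFC CUMS. Astrocyte genes (median -1.36, 12 of 12 below 0) summed to 329 to 523 CPM in PFC CUMS_M, against 776 and 844 CPM in PFC CUMS. Oligodendrocyte genes (median -1.26, 11 of 11 below 0) summed to 260 to 394 CPM, against 680 and 713 CPM in PFC CUMS, and neuron genes (median -1.13, 9 of 10 below 0) to 28.9 to 50.9 CPM, against 57.0 and 49.4 CPM. No marker of these 4 lists was at 0 throughout either PFC group. Choroid plexus genes (median 6.24, 0 of 8 below 0) were high in 1 library, at 2.51, 1.31 and 614 CPM in PFC CUMS_M, against 1.86 and 3.35 CPM in PFC CUMS, where 3 of the 8 were at 0. The 20 microglial markers had a PFC median of 0.08 and summed to 74900 to 87300 CPM in PFC CUMS_M, against 76000 and 80400 CPM in PFC CUMS. Without PFC CUMS_M library 3, which held the choroid plexus counts, the median difference between regions of the early genes was -1.01. The part of the other cells in the region difference was not tested.

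**Figure D5:**
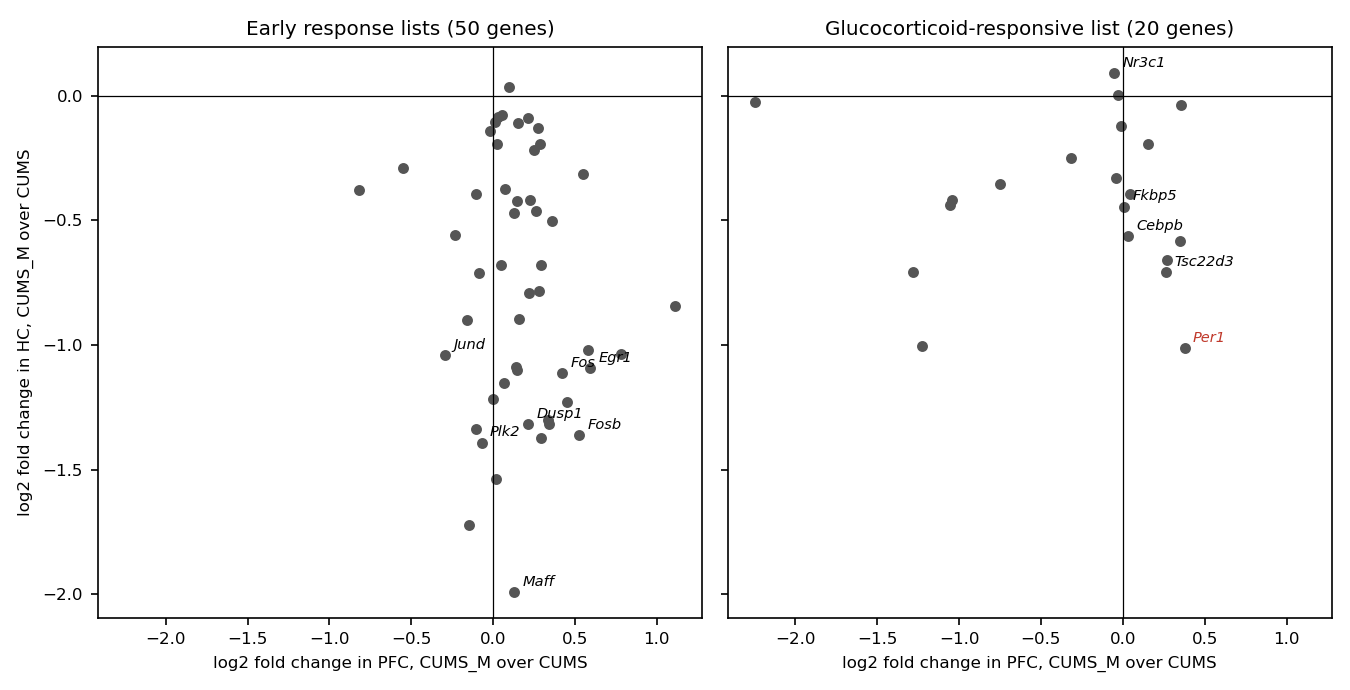
Log2 fold change of CUMS_M over CUMS in HC (vertical) and in PFC (horizontal), 1 point per gene, for the 50 early response genes (left) and the 20 glucocorticoid-responsive genes (right). Most early genes lie below 0 in HC (49 of 50) and above 0 in PFC (38 of 50), and Per1 lies at -1.01 in HC and 0.38 in PFC.

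The 6 libraries held between 13.2 M and 15.3 M counts, those of the minocycline table between 7.87 M and 15.3 M, and the depths of the groups overlapped, at 15.3, 13.3 and 13.6 M in HC CUMS_M and 13.2, 14.5 and 14.4 M in HC CUMS. No batch of sorting or sequencing is given, so any such batch and the treatment cannot be told apart. Counts of replicate libraries differed beyond sampling noise in every pair, with a chi-square of 6.19 to 24.7 per gene. In all, 16 genes reached 10 counts in all 3 CUMS_M libraries and in no CUMS library, and 25 the reverse.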

How the data were processed

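RNA-seq libraries of CD11b+ cells sorted from mouse hippocampus and prefrontal cortex were measured as counts per gene. The deposited file holds whole-number counts made by the authors, in 1 table of 15 libraries. The submitters' processing notes name Trimmomatic 0.36 (read trimming), STAR 2.6.1b (alignment), the build mm10/GRCm38, Picard 2.17.1, featureCounts 1.5.3 (counting) and DESeq2 1.24.0, with no settings. The libraries were strand-specific and polyA-enriched, per the labels' protocols, while the annotation release and the strand setting of the counting are not given in the sources used here. The table of the enrichment experiment was not used here.

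Starting from the counts, genes with at least 10 counts in at least 3 of the 6 HC CUMS_M and HC CUMS libraries were kept, 13445 of 53412. The PFC and HC NAIVE libraries did not enter this filter, and the region test used the same genes. All 15 libraries entered 1 fit in edgeR 4.0.16 (R 4.3.3, TMM scaling, robust quasi-likelihood F-test, 1 mean per group and region, no covariate). The Benjamini-Hochberg adjustment ran over all 13445 genes, and a gene was called at an adjusted p under 0.05. CPM are counts over the effective library size, given per library or as mean ± SD, and log2 fold changes carry the SE of the fit. The 13.2 M to 15.3 M counts of the 6 libraries limit precision mainly for genes of a few CPM. The fit was tested on simulated data with known changes. It called 71 of 100 genes changed by a fold of 2 and 84 of 100 changed by a fold of 4. It also called 6 unchanged genes.

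Symbols came from the reference tables (53326 identifiers matched), positions, exon lengths and shared exon bases from GENCODE M21 (GRCm38), and sequences from RefSeq (GRCm38.p6). The rule for named genes takes every called gene, the 10 genes of smallest p in each direction, up to 4 members of smallest p of each list, and 12 fixed genes. It covers 177 genes, of which part is named, and 8 genes named after their values were seen are marked so. The lists, the genes and the rule were chosen with earlier results of these data known, so lists are described by counts and medians with no test. Same-numbered libraries of the groups deviated from their group means with correlations of -0.064, 0.067 and -0.030, so the numbers were not used as pairs. Alternatives were the size factors of DESeq2 1.42.0, its Wald test, no filter, filterByExpr, only the 6 libraries, a replicate block and leaving out each library. Figures were drawn with matplotlib 3.10.9 in Python 3.11.15.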

Additional observations from a re-analysis of the deposited data

Results flagged for a closer look

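Per1 is listed here because its difference between CUMS_M and CUMS was not alike in the regions in the fit to all 15 libraries. Its log2 fold change in HC minus that in PFC was -1.39 ± 0.19 (edgeR interaction test, adjusted p = 0.0108), with values of -1.01 in HC and 0.38 in PFC. In PFC alone the edgeR adjusted p was 0.616. With 1 library left out (HC CUMS_M 1 or 3, or HC CUMS 1 or 3), the interaction test adjusted p was 0.0576 to 0.0782. It was 0.0458 without HC CUMS library 2, 0.0492 without HC CUMS_M library 2, and 0.00223 to 0.0431 without a PFC CUMS_M library. Without PFC CUMS library 1 or 2 the log2 difference was -1.40 and -1.37. Each of the 3 HC CUMS_M libraries lay below every HC CUMS library, an order seen in 4.57% of all tested genes. Each of the 3 PFC CUMS_M libraries lay above both PFC CUMS libraries, and the share of tested genes in that order was not counted.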

How the results depend on the processing

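The 1 called gene became 31 with no filter on low counts (26 lower, 5 higher, of 24732 genes), 33 with the DESeq2 Wald test (24 lower, 9 higher) and 8, all lower, with the replicate block, while it was 1 with DESeq2 size factors, with filterByExpr and with only the 6 libraries. Leaving out 1 library gave 0 to 2 called genes. The replicate block called Per1, Jund, Egr1, Csrnp1, Ier2, Ier3, Dusp1 and Tnf, but the replicate numbers did not pair the libraries, and of the 3 CUMS_M libraries only library 2 correlated best with its own number (0.067). The log2 fold change of Per1 ranged from -1.03 to -0.96 over the left-out libraries and was -1.005 with the block. For the region difference the 1 called gene became 37 with no filter, 3 with DESeq2, 2 with the replicate block within region (where Per1 had -1.40, adjusted p = 0.058) and 0 to 1 without 1 library, with Per1 between -1.51 and -1.23. Itgam had 0.03, and between -0.011 and 0.10 without 1 library. DESeq2 gave no adjusted p for 6777 genes, which stay out of its counts. The cause of these differences was not tested. Depth limits the precision of genes near 1 CPM, such as Maff.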
